A study of Mus musculus with 3 samples.

Results

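Alkaline phosphatases are zinc enzymes that remove phosphate groups from their substrates, and most of them are held on the outer face of the cell by a glycosylphosphatidylinositol (GPI) anchor. In the small intestine they lie on the brush border of absorptive enterocytes, where they dephosphorylate luminal nucleotides and the lipid A part of bacterial lipopolysaccharide, and intestinal alkaline phosphatase is a classical marker of enterocyte maturation. The mouse has 4 such genes among the 31053 genes of the count matrices, and all 4 were taken by symbol: Alpi, the intestinal form found along the small intestine, Akp3, known as the duodenal intestinal form, Alppl2, the placental-like form known from the embryo, and Alpl, the tissue-nonspecific form known from bone, liver and kidney.

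Cells of the small intestine of wildtype male C57BL/6N mice aged 12 weeks and fed normal chow were studied. Cells from 3 mice were pooled, live cells were sorted as negative for propidium iodide, and 1 library each of single-cell RNA was made of each segment (duodenum, jejunum, ileum) with a 3′ kit that counts unique molecular identifiers (UMIs). The segments were parts of the small intestine, cut in order from its proximal end and taken to represent duodenum, jejunum and ileum. Since each segment is 1 library from a pool of animals, differences between segments have no replicate and were not tested, and the intervals given with levels cover counting error only. No treatment or genetic change was involved.

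Of 27235 barcodes, 16686 lay within the filters of the study, 4255 in the duodenum, 4360 in jejunum and 8071 in ileum. The kept cells held a median of 12424, 11737 and 5536 UMIs in this order, and their median share of mitochondrial UMIs was 27.1%, 27.2% and 11.1%. Between 4 and 12 kept barcodes were shared by any pair of libraries. Clusters were named from marker lists as enterocytes (10648 cells), early enterocytes (1056), goblet cells (747), tuft cells (301), intestinal stem and proliferating cells (ISC/proliferating, 223), enteroendocrine cells (EECs, 170), Paneth cells (24), T cells (1233), B cells (610), IgA B cells (87) and macrophages or monocytes (26). The 4 phosphatases were left out of the genes used for clustering. Of the 13 enterocyte markers 11 were highest in the cells named enterocytes, of the 8 early enterocyte markers 6 in early enterocytes, and of the 12 EEC markers 12 in EECs.

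Alppl2, Alpi and Akp3 are neighbours on chromosome 1 of the mouse genome (GENCODE M21, GRCm38). Alppl2 (ENSMUSG00000026246) runs from 87086694 to 87089928 and Alpi (ENSMUSG00000079440) from 87098002 to 87101606, both on the minus strand, while Akp3 (ENSMUSG00000036500) runs from 87124973 to 87127912 on the plus strand. The gap between Alppl2 and Alpi is 8073 bases, that between Alpi and Akp3 23366 bases, and the 3 genes span 41219 bases. In RefSeq Alppl2 extends further upstream, to 87095934, which makes its gap to Alpi smaller. Each of the 3 has 11 exons in its longest transcript. Alpl (ENSMUSG00000028766) lies apart on chromosome 4, from 137741733 to 137796384 on the minus strand. The coding sequences of Alpi and Akp3 were identical at 81.8% of aligned bases, those of Alpi and Alppl2 at 81.7% and those of Akp3 and Alppl2 at 78.4%, and identity with Alpl was between 65.1% and 66.3%.

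The promoters of the 3 neighbours are shown because these genes share sequence upstream of the start but differed in where they were counted. All 4 genes matched the RefSeq promoter table (GRCm38.p6), Alpl with 2 promoters. The start used for Alppl2, at 87089928, is also that of GENCODE M21. The RefSeq extent of Alppl2 reaches further upstream, to 87095934, so that the bases printed for Alppl2 lie within it. The 160 bases before the start of Alppl2 (chr1:87089929-87090088, minus strand), Alpi (chr1:87101607-87101766, minus strand) and Akp3 (chr1:87124794-87124953, plus strand) read as follows from 5′ to 3′, with capitals for the pair of 13-base blocks found in all 3.
Alppl2: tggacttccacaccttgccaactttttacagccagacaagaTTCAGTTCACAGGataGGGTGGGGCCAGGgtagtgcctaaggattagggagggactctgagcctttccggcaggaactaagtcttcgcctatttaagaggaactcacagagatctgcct
Alpi: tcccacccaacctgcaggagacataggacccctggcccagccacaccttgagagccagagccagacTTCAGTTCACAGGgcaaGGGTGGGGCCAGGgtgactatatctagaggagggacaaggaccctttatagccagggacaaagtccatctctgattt
Akp3: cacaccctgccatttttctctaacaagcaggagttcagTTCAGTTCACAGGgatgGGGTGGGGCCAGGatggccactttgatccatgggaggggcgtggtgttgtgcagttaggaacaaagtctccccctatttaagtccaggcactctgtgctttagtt

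The first block, TTCAGTTCACAGG, starts 119 bases before the start of Alppl2, 94 before that of Alpi and 122 before that of Akp3, and on either strand it occurred in 10 of 32851 promoters (0.0304%), each searched from 250 bases before to 50 bases after the start. The second, GGGTGGGGCCAGG, starts 103, 77 and 105 bases before the start in the same order and occurred in 16 promoters (0.0487%). Neither block was in the Alpl promoters. The letters CAAAGTC, the core of a binding motif of HNF4 factors, were searched on both strands and lay 19 bases before the start of Alpi, 44 before that of Akp3 and 214 before that of Alpl, and they occurred in 1459 promoters (4.44%). These matches describe the letters only.

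Among the cell classes, Alpi was highest in enterocytes in all 3 segments. Its level, in UMIs of the gene per 10000 UMIs of the summed cells, was 23.6 (95% interval 23.5 to 23.7) in duodenal enterocytes, 8.45 (8.36 to 8.53) in jejunal and 7.42 (7.32 to 7.51) in ileal ones. Enterocytes of the duodenum thus lay above those of both other segments, which were closer to each other, with ratios of 2.79 to the jejunum, 3.18 to the ileum and 1.14 between jejunum and ileum. Per 10000 non-mitochondrial UMIs these ratios were 2.81, 3.78 and 1.35, since ileal cells held fewer mitochondrial UMIs. Duodenal enterocytes held a median of 23 Alpi UMIs each, with 3 at the 5th and 76 at the 95th percentile. After each cell was thinned at random to 800 UMIs, to compare shares at equal depth, 75.7% of duodenal, 47.9% of jejunal and 42.6% of ileal enterocytes still held an Alpi UMI.

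Early enterocytes, the cells at the base of the villus with Reg and Dmbt1 transcripts, had less Alpi in each segment. Their levels were 9.87 in the duodenum, 2.49 in jejunum and 1.32 in ileum, so that enterocytes were 2.39-fold, 3.40-fold and 5.62-fold higher. ISC/proliferating cells of the crypt had 1.88, 0.899 and 0.290 in the same order. In the edgeR quasi-likelihood test across 11365 genes, with UMIs summed per library and class and the library as a block, Alpi was lower in early enterocytes than in enterocytes by a log2 fold change of -2.19 (SE 0.38, adjusted p = 5.15e-05), in 3 of 3 libraries. In this comparison 45.5% of all genes tested passed the adjusted threshold of 0.05, and 24.0% of all genes tested were called lower. In ISC/proliferating cells Alpi was lower than in enterocytes by a log2 fold change of -4.61 (SE 0.43, adjusted p = 1.40e-09 by edgeR), where 34.7% of all genes were called lower. These p-values rest on the 3 segment libraries of 1 pool and say nothing of the spread between animals. The spread they use was estimated over the sums of all 9 classes in the fit. Without the library block the difference of early enterocytes no longer passed (log2 fold change -1.84, adjusted p = 0.152 by edgeR).

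**Figure D1:**
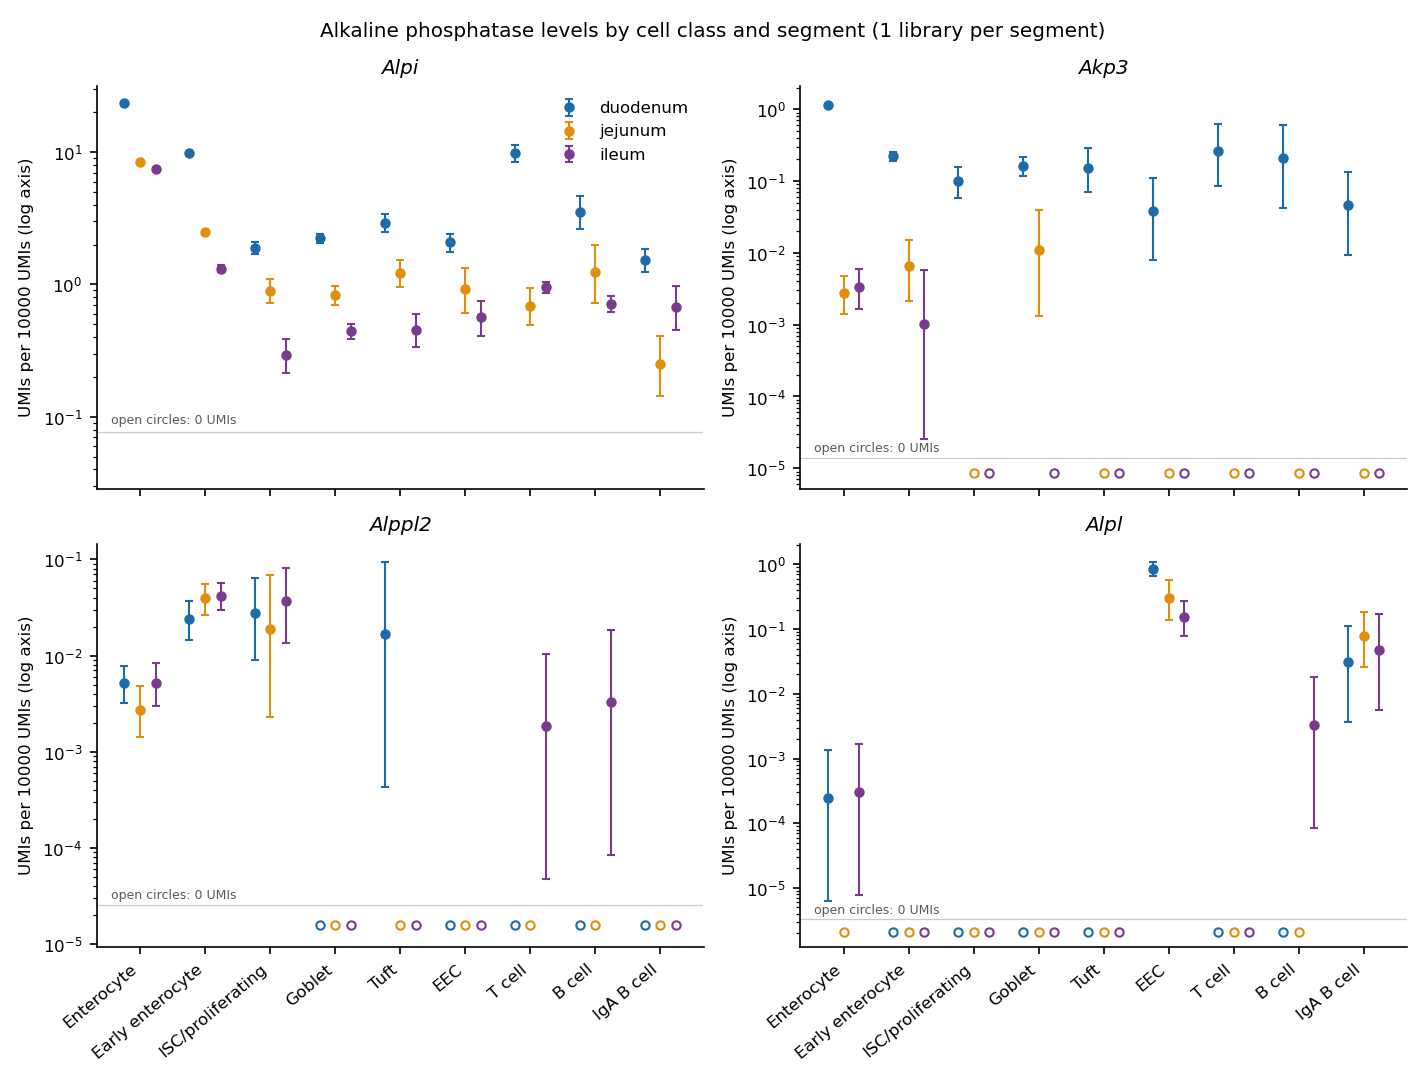
Levels of the 4 phosphatase genes as UMIs per 10000 UMIs (log axes that differ between panels) in 9 cell classes, with 1 point per class and segment library and 95% Poisson intervals that cover counting error only; open circles mark 0 UMIs. Alpi is highest in enterocytes of each segment, Akp3 lies in the duodenum, Alppl2 is highest in early enterocytes and ISC/proliferating cells, and Alpl in EECs and IgA B cells.

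The order of Alpi levels was the same at its top in each library, with enterocytes first and, in jejunum and ileum, early enterocytes next, each beyond the interval of the class that followed. Below these the intervals of many neighbouring classes overlapped. In the jejunum B cells, tuft cells, EECs, ISC/proliferating cells, goblet cells and T cells lay between 1.25 and 0.689 and neighbours in this order had overlapping intervals, while IgA B cells lay apart at 0.252 (0.144 to 0.408). In the ileum the classes below early enterocytes ran from 0.95 in T cells to 0.290 in ISC/proliferating cells, with 0.145 for the 11 Paneth cells. In the duodenum the corresponding classes lay between 1.53 in IgA B cells and 3.52 in B cells, except for T cells with 9.80 (8.44 to 11.3), which overlapped early enterocytes. These 35 duodenal T cells held Alpi unevenly, since the mean over cells was 5.47 and the level was 7.56 when only cells with at most 20% mitochondrial UMIs were summed.

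Free RNA of enterocytes can be caught in the droplets of other cells, so Alpi in each class was set beside the 13 enterocyte markers in the same class. In goblet cells Alpi reached 9.45%, 9.78% and 5.98% of the enterocyte level of the same library, while the median of the 13 markers reached 13.0%, 12.6% and 7.25%. In EECs the values for Alpi were 8.80%, 10.9% and 7.59% beside 17.3%, 13.0% and 11% for the markers, and in T cells 41.5%, 8.16% and 12.8% beside 30.9%, 9.03% and 13.3%. In ISC/proliferating cells they were 7.97%, 10.6% and 3.92% beside 11.7%, 6.46% and 5.21%. Alpi in goblet cells, EECs and tuft cells was thus below the median of the markers in every library, and how much of it came from free RNA was not tested. In the edgeR test Alpi was lower than in enterocytes in each of goblet cells, tuft cells, EECs, T cells and B cells (log2 fold changes of -3.67, -3.90, -4.33, -3.28 and -3.89, adjusted p of 1.37e-07 or less, lower in 3 of 3 libraries). Of all genes, 23.6%, 26.6%, 29.0%, 34.9% and 35.3% were called lower in these comparisons.

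Akp3 was counted almost wholly in the duodenum. Of 5001 Akp3 UMIs in kept cells, 4970 lay in the duodenum, 19 in jejunum and 12 in ileum. In enterocytes the level was 1.13 (1.10 to 1.17) in the duodenum, from 4631 UMIs, against 0.00275 (0.00142 to 0.00480) in the jejunum from 12 UMIs and 0.00336 (0.00168 to 0.00601) in the ileum from 11. The duodenal level was thus 412-fold that of the jejunum (234 to 727) and 337-fold that of the ileum (187 to 609), a far wider range between segments than for Alpi. Whether the few UMIs of the distal segments came from the cells that held them was not tested. Akp3 was found in 1678 kept cells of the duodenum, in 16 of the jejunum with at most 2 UMIs each, and in 4 of the ileum, 1 of which held 7 UMIs. None of these jejunal and ileal cells had a barcode that also occurs in the duodenal library.

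Within the duodenum Akp3 was spread over the same classes as Alpi. Early enterocytes had a level of 0.222 from 186 UMIs, which is 0.196 times that of enterocytes (0.169 to 0.227), ISC/proliferating cells 0.0992 from 18 UMIs and goblet cells 0.162 from 43. In goblet cells this was 14.3% of the enterocyte level, beside the median of 13.0% for the enterocyte markers, and in T cells 23.4% beside 30.9%, from 5 UMIs. In the edgeR test Akp3 was lower in early enterocytes than in enterocytes (log2 fold change -1.88, SE 0.47, adjusted p = 0.00191), although its level was lower in 2 of 3 libraries only: the jejunum had 5 UMIs in early enterocytes against 12 in enterocytes, a ratio of 2.38 (0.658 to 7.27). The call rests on the duodenum, without which Akp3 had too few counts to be tested, and it was not made by DESeq2 (log2 fold change -1.60, adjusted p = 0.148) or without the library block (-2.56, adjusted p = 0.269 by edgeR).

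Which 3′ end of Akp3 was counted is uncertain. The GENCODE M21 transcript of Akp3 ends with the coding sequence, with 0 bases after it, whereas the RefSeq transcript extends 816 bases further in the 3′ direction, and the kit reads the 3′ ends of transcripts. Alpi, Alpl and Alppl2 have 601, 704 and 354 annotated bases after the coding sequence. The annotation used for counting is not given in the sources used here, so levels of Akp3 were compared between cells. Shares of Akp3 among the UMIs of Alpi and Akp3 depend on that end in their size and are compared only between groups of cells. Of 2288 windows of 50 bases in the Alpi transcript, 35 also occurred in Akp3 and none of them within the last 500 bases.

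Next, the position of the enterocytes along the villus was estimated, to see whether the members differed between its bottom and its tip. Each of 11703 enterocytes and early enterocytes was scored by 6 genes of the villus tip against 7 of the bottom, none of them a member, and the cells of each library were split into quintiles of this score. The 7 bottom genes are also early enterocyte markers, and early enterocytes made up 45.0%, 38.5% and 43.8% of the lowest quintile in duodenum, jejunum and ileum, so this comparison is not independent of the one between the classes. Median UMIs per cell were lower toward the tip, from 17345 in the lowest to 8204 in the highest quintile of the duodenum, from 20266 to 10538 in jejunum and from 13014 to 7152 in ileum, and their part in the result was not tested beyond the use of levels per 10000 UMIs.

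In the jejunum Alpi was 3.56 per 10000 UMIs in the lowest quintile, then 6.69, 8.91, 10.6 and 11.1, higher at each step. In the ileum the levels were 2.28, 6.02, 7.42, 8.45 and 9.67 in the same order. In the duodenum they were 15.6, 22.6, 23.5, 24.4 and 23.6, so that most of the difference lay between the lowest quintile and the next. The ratio of the highest to the lowest quintile was 1.52 (1.49 to 1.55) in the duodenum, 3.13 (3.03 to 3.24) in jejunum and 4.25 (4.07 to 4.43) in ileum. Alpi was higher in the top quintile in 3 of 3 libraries (log2 fold change 1.90, SE 0.27, adjusted p = 3.37e-05, edgeR), in a comparison where 70.6% of 11118 genes outside the score were called, 33.6% as higher and 37.0% as lower. Without the library block Alpi did not pass (log2 fold change 1.51, adjusted p = 0.129 by edgeR).

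**Figure D2:**
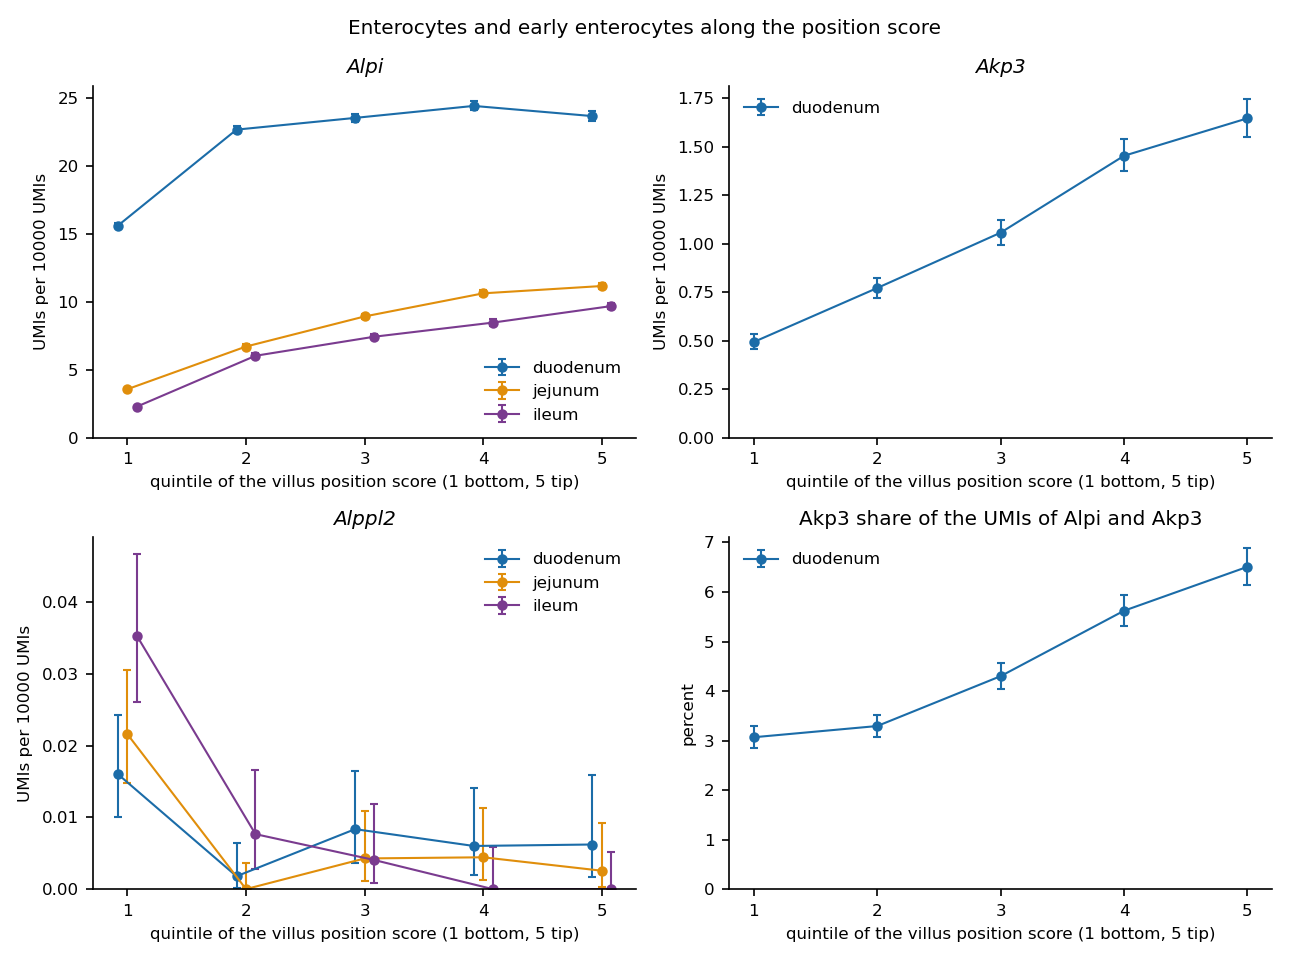
Levels of Alpi and Alppl2 in the 3 segment libraries and of Akp3 in the duodenum, as UMIs per 10000 UMIs on linear axes, and the percent of Akp3 among the summed Alpi and Akp3 UMIs of the duodenum, against the quintile of the villus position score (1 bottom, 5 tip); bars are 95% intervals of counting error. Alpi is lowest and Alppl2 highest in quintile 1 of each segment, and duodenal Akp3 and its share are higher toward the tip.

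Akp3 in the duodenum was higher at each step toward the tip, with 0.493, 0.771, 1.06, 1.45 and 1.65 per 10000 UMIs from between 677 and 1208 UMIs a quintile. The ratio of the highest to the lowest quintile was 3.34 (3.03 to 3.68), compared with 1.52 for Alpi in the same cells. Akp3 therefore took a growing share of the summed Alpi and Akp3 UMIs, from 3.07% over 3.29%, 4.30% and 5.62% to 6.51%. In the jejunum the quintiles held 5, 1, 5, 4 and 2 Akp3 UMIs and in the ileum 4, 8, 0, 0 and 0, from which no course can be read. The edgeR test called Akp3 higher in the top quintile (log2 fold change 1.81, SE 0.49, adjusted p = 0.00498) with a higher level in 1 of 3 libraries, the duodenum. This call was not made by DESeq2 (log2 fold change 0.58, adjusted p = 0.697), with the score split in 3 parts (1.21, adjusted p = 0.0831 by edgeR) or without the library block (2.08, adjusted p = 0.593 by edgeR).

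The share of Akp3 among the summed Alpi and Akp3 UMIs of the duodenum was 4.58% (4.45% to 4.71%) in enterocytes and 2.20% (1.90% to 2.54%) in early enterocytes. It was not lowest in the crypt, with 5.01% (2.998% to 7.81%) in ISC/proliferating cells from 18 Akp3 UMIs. Goblet cells had 6.78% (4.95% to 9.03%) from 43. Both lay above early enterocytes beyond the intervals, but the interval of ISC/proliferating cells also held the 4.58% of enterocytes. Akp3 in ISC/proliferating and goblet cells was 8.76% and 14.3% of the enterocyte level. The median of the 13 enterocyte markers was 11.7% and 13.0% there. How much of the Alpi and Akp3 in these classes came from free RNA was not tested. The remaining classes, from 1.80% in EECs to 5.56% in B cells, had intervals that overlapped that of early enterocytes. The clusters into which enterocytes fell also differed. Akp3 in duodenal cells was lowest, at 0.623 per 10000 UMIs, in the 47 cells of a cluster led by Pck1 and Slc5a12. It was highest, at 3.87, in the 40 cells of a cluster led by Tmigd1 and Slc10a2. Slc10a2 is a bile acid transporter of enterocytes. Leading genes were taken over all cells of a cluster, and these clusters were mostly ileal (851 of 1174 and 536 of 648 cells). Whether the leading genes mark the duodenal cells of these clusters was not tested. Alpi was also lowest and highest in these same clusters of the duodenum, at 13.2 and 41.9, while the others lay between 21.8 and 26.1. In the more distal segments the cluster led by Tmigd1 and Slc10a2 had 9.00 (jejunum) and 6.95 (ileum) Alpi UMIs per 10000, close to the level of all enterocytes there.

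Cells of the duodenum held both enzymes together. Of 3248 duodenal enterocytes, 1508 held UMIs of Alpi and Akp3, 1693 of Alpi only, 1 of Akp3 only and 46 of neither. Of 364 duodenal early enterocytes, 94 held both and none held Akp3 without Alpi. At 800 UMIs a cell 253 enterocytes (7.79%, 6.89% to 8.77%) held both, and Alpi was found in 93.0% of the cells with Akp3 and in 74.1% of those without. Duodenal enterocytes with an Akp3 UMI had 31.8 Alpi UMIs per 10000 (31.5 to 32.0), against 15.5 (15.3 to 15.7) in those without, at median depths of 12763 and 11672 UMIs. In early enterocytes the levels were 15.1 with and 7.63 without Akp3, at median depths of 27348 and 20192. Across the 3248 enterocytes Spearman's rho between the per-cell levels of the 2 genes was 0.610, over cells that share 1 library and are not independent samples. In T cells of the duodenum, 1 of 35 held both.

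Alppl2 had the opposite distribution along the villus. It was rare, with 168 UMIs in 145 kept cells, and these lay mostly in early enterocytes with 91 UMIs in 74 cells, in enterocytes with 50 UMIs in 48 cells and in ISC/proliferating cells with 13 UMIs in 9 cells. Its level in early enterocytes was 0.0239 per 10000 UMIs in the duodenum, 0.0393 in jejunum and 0.0419 in ileum, compared with 0.00514, 0.00275 and 0.00519 in enterocytes. The ratios were 4.65 (2.39 to 9.02), 14.3 (7.11 to 30.7) and 8.07 (4.48 to 15.2), so that early enterocytes were higher in each library beyond counting error. Goblet cells, EECs and IgA B cells held no Alppl2 UMI, and T cells, B cells and tuft cells 1 each. For goblet cells this allows a level of up to 0.00314 per 10000 UMIs at the limit of 3 counts. In EECs and IgA B cells the 95% intervals over all libraries reached 4.81 and 5.24 times the enterocyte level. In tuft cells the ratio was 1.02 (0.0254 to 5.97). The counts of EECs, IgA B cells and tuft cells thus do not set them below enterocytes. Of the 145 cells with Alppl2, 135 also held Alpi, which was common in cells without Alppl2 as well. Among early enterocytes of duodenum, jejunum and ileum Alpi was in 100%, 91.7% and 88.6% of cells with Alppl2. It was in 96.8%, 94.9% and 77.1% of those without. In enterocytes the shares were 100% with Alppl2 in each segment, and 98.5%, 98.2% and 90.2% without. Of the windows of the Alpi transcript, 1 also occurred in Alppl2.

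Alppl2 had too few counts to pass the filter of the class test. Without the filter it was higher in early enterocytes than in enterocytes (log2 fold change 2.61, SE 0.57, adjusted p = 0.000201, edgeR), where 11.7% of 21079 genes were called higher. Along the villus its quintiles held 22, 2, 8, 5 and 4 UMIs in the duodenum, 32, 0, 4, 4 and 2 in jejunum and 49, 6, 3, 0 and 0 in ileum, from the lowest to the highest. The level was thus highest in the lowest quintile of each library, at 0.0160, 0.0216 and 0.0353 per 10000 UMIs. In the duodenum the ratio of the highest to the lowest quintile was 0.388 (0.134 to 1.13), so that there the difference was within counting error. Alppl2 was lower in the top than in the bottom quintile in 3 of 3 libraries (log2 fold change -2.53, SE 0.83, adjusted p = 0.0151, edgeR), but it passed the filter through the lowest quintile, where it was high, so the call is given as a description. It did not pass without the jejunum (-2.57, adjusted p = 0.0782 by edgeR) or without the library block (-2.54, adjusted p = 0.0815 by edgeR).

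Alpl, whose product is known for its part in the mineralization of bone, was nearly absent from absorptive cells and lay in EECs, the hormone cells of the epithelium. Of its 101 UMIs in 25 kept cells, 88 were in 14 of the 170 EECs, 9 in 7 of the 87 IgA B cells, 2 in enterocytes, 1 in a B cell and 1 in an unnamed cell. In EECs the level was 0.848 (0.658 to 1.08) per 10000 UMIs in the duodenum, 0.306 (0.14 to 0.582) in jejunum and 0.153 (0.0793 to 0.268) in ileum. Over all libraries it was 2767 times that of enterocytes, with a counting interval from 743 to 23203 because only 2 UMIs were found in 10648 enterocytes. Early enterocytes, goblet cells, tuft cells, ISC/proliferating cells and T cells held no UMI. EECs were higher in 3 of 3 libraries, and edgeR called Alpl in this comparison (adjusted p = 7.50e-08), where 27.9% of genes were called higher. Alpl passed the filter through EECs, the class in which it was high, so the call is given as a description.

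Among EECs, Alpl lay in K cells, which secrete the incretin GIP. These were named after their Gip transcripts, and the pair of Alpl and Gip was chosen after its values had been seen. The 21 K cells held 83 of the Alpl UMIs, in 12 cells. Their level was 4.68 per 10000 UMIs (3.60 to 5.99) in the duodenum from 8 cells, 0.914 (0.418 to 1.74) in the jejunum from 6 and 1.27 (0.635 to 2.28) in the ileum from 7. The other 149 EECs held 5 UMIs, in a somatostatin (D) cell with 4 and a neurotensin (N) cell with 1, at a level of 0.0323. Each EEC was named for the hormone furthest past its threshold in the study, and this D cell was past that of Gip too. Of 25 EECs past the Gip threshold 13 held Alpl, beside 1 of the 145 others. No Alpl UMI was found in 12 CCK (I) cells, 8 glucagon (L) cells, 45 enterochromaffin (EC) cells and 15 EECs with no leading hormone. For the EC cells this allows a level of up to 0.08 per 10000 UMIs at the limit of 3 counts.

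**Figure D3:**
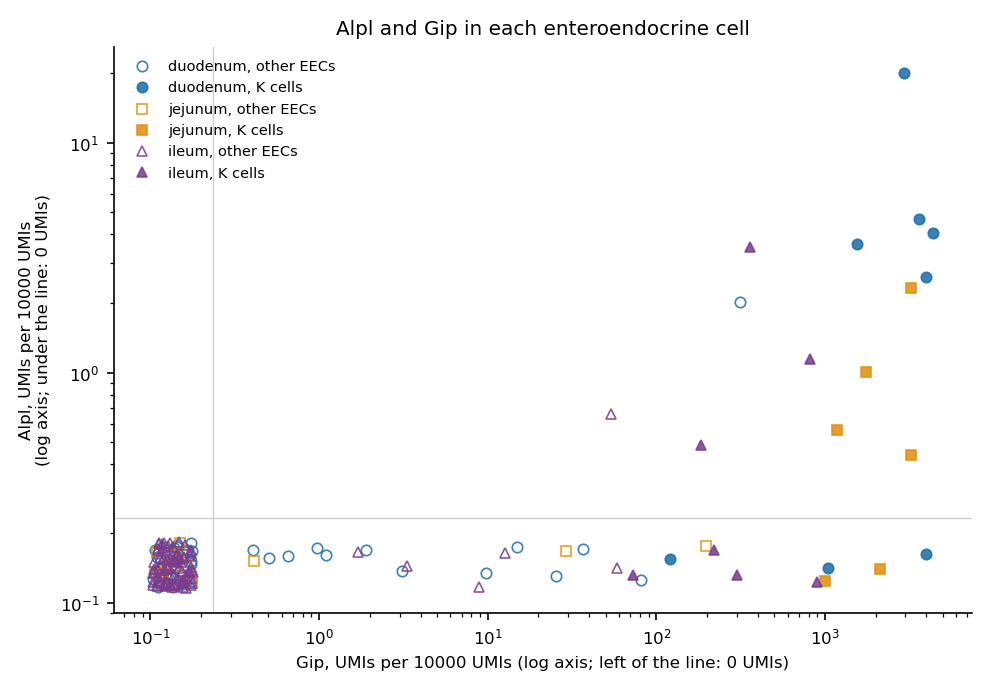
Alpl against Gip in single EECs as UMIs per 10000 UMIs on log axes, with 1 point per cell, shape and colour for the segment and filled points for K cells; cells with 0 UMIs of a gene are spread at random beyond the grey lines. All 14 EECs with an Alpl UMI hold Gip, at 53.5 per 10000 UMIs or more.

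All 14 EECs with Alpl also held Gip, whereas 43 of the 170 EECs held any Gip UMI. The lowest Gip level among the 14 was 53.5 per 10000 UMIs, a level reached by 26 EECs. The D cell with 4 Alpl UMIs held 614 Gip UMIs and the N cell 81. A single duodenal K cell held 27 Alpl UMIs among 13431 UMIs, or 20.1 per 10000. The next held 12, 10, 9, 8 and 6 UMIs, and 5 of the 6 cells with the most Alpl were duodenal. K cells were sequenced more deeply than other EECs, with median UMIs of 18937 against 15393 in the duodenum, 18835 against 5012 in jejunum and 12205 against 4268 in ileum. At 800 UMIs a cell, 1 of the 8 duodenal K cells, no K cell of the other segments and the duodenal D cell kept an Alpl UMI, so that shares of positive cells cannot be compared at that depth. Alpi in duodenal K cells was 4.31 per 10000 UMIs, but 0.313 in the 5 of them with at most 20% mitochondrial UMIs. Jejunal K cells had 0.203 and ileal ones held none.

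The genes around the enzymes were then described by list: those that build their GPI anchor, load their zinc, share their substrates or regulate them. In the position test 26 genes of GPI anchor assembly and attachment were tested, of which 15 were lower and 3 higher at the tip, beside 37.0% lower and 33.6% higher over all genes, with a median log2 fold change of -0.84 beside -0.07. Dpm3, a subunit of the enzyme that makes dolichol phosphate mannose, had 0.0982 per 10000 UMIs in the top and 0.633 in the bottom quintile as means over libraries (log2 fold change -2.29, SE 0.21, adjusted p = 9.13e-07, edgeR). Pigb, a mannosyltransferase, Pigk, the catalytic subunit of the transamidase that attaches the anchor, and Pigp, a subunit of the first enzyme of the pathway, were lower by log2 fold changes of -1.91, -1.88 and -1.82. Against enterocytes, early enterocytes had 10 of 24 tested genes of this list higher and 1 lower, at a median of 0.34 beside -0.11. Of all genes, 21.6% were higher in early enterocytes. Not every gene of the list followed this direction, since 8 did not pass along the villus and Pigc, Piga and Pigm, named here after their values had been seen, were called higher at the tip, Pigm with a lower mean level there (0.143 against 0.161).

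Other enzymes that cleave phosphate outside the cell were listed as well. Of 11 tested ectophosphatases and ectonucleotidases 5 were higher and 1 lower at the tip, beside 33.6% higher and 37.0% lower over all genes, with a median log2 fold change of 0.49. Nt5e, the 5′-nucleotidase that makes adenosine from AMP, had 10.0 per 10000 UMIs in the top and 0.0612 in the bottom quintile (log2 fold change 8.58, SE 0.76, adjusted p = 7.02e-07, edgeR). Enpp3, a nucleotide pyrophosphatase, had 9.09 and 0.312 (5.96), and Entpd8, an ectonucleoside triphosphate diphosphohydrolase, 3.53 and 0.659 (2.89), with all of them higher in 3 of 3 libraries. Entpd2, of the same family, differed by 0.90. Early enterocytes had 7 of 12 such genes lower than enterocytes and none higher, where 24.0% of all genes were lower.

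Of the 16 transcription factors listed for intestinal alkaline phosphatase or enterocyte fate, 8 were higher and 5 lower at the tip, so that the share called was near the 70.6% over all genes. Klf4, a factor of differentiated epithelium, had 9.47 per 10000 UMIs in the top and 1.45 in the bottom quintile (log2 fold change 3.26, SE 0.19, adjusted p = 3.53e-08, edgeR). Hnf4a, a nuclear receptor of enterocytes, had 5.34 and 1.88 (1.97), while Klf5, a factor of crypt cells, had 0.876 and 3.86 (-1.61) and Thrb, a thyroid hormone receptor, 0.0272 and 0.228 (-2.75). Of 4 tested phosphate transporters 2 were higher and 1 lower, beside 33.6% higher and 37.0% lower over all genes. Slc34a2, the sodium phosphate cotransporter of the brush border, had 7.45 and 1.93 (3.51), Slc20a2 differed by 1.04 and the exporter Xpr1 by -0.58. Of 5 tested genes of lipopolysaccharide sensing 3 were higher, the coreceptor Cd14 by 2.97, Tirap by 1.61 and Ticam1 by 1.11, where 33.6% of all genes were higher. Of 3 zinc transporters that load secretory phosphatases, Slc30a5 was lower (-0.73), where 37.0% of all genes were lower. Without TMM scaling the median over all genes was -0.59 in place of -0.07 and the split of the GPI list became 2 higher and 23 lower, while that of the ectophosphatases became 4 and 4 and that of the transcription factors 7 and 8.

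**Figure D4:**
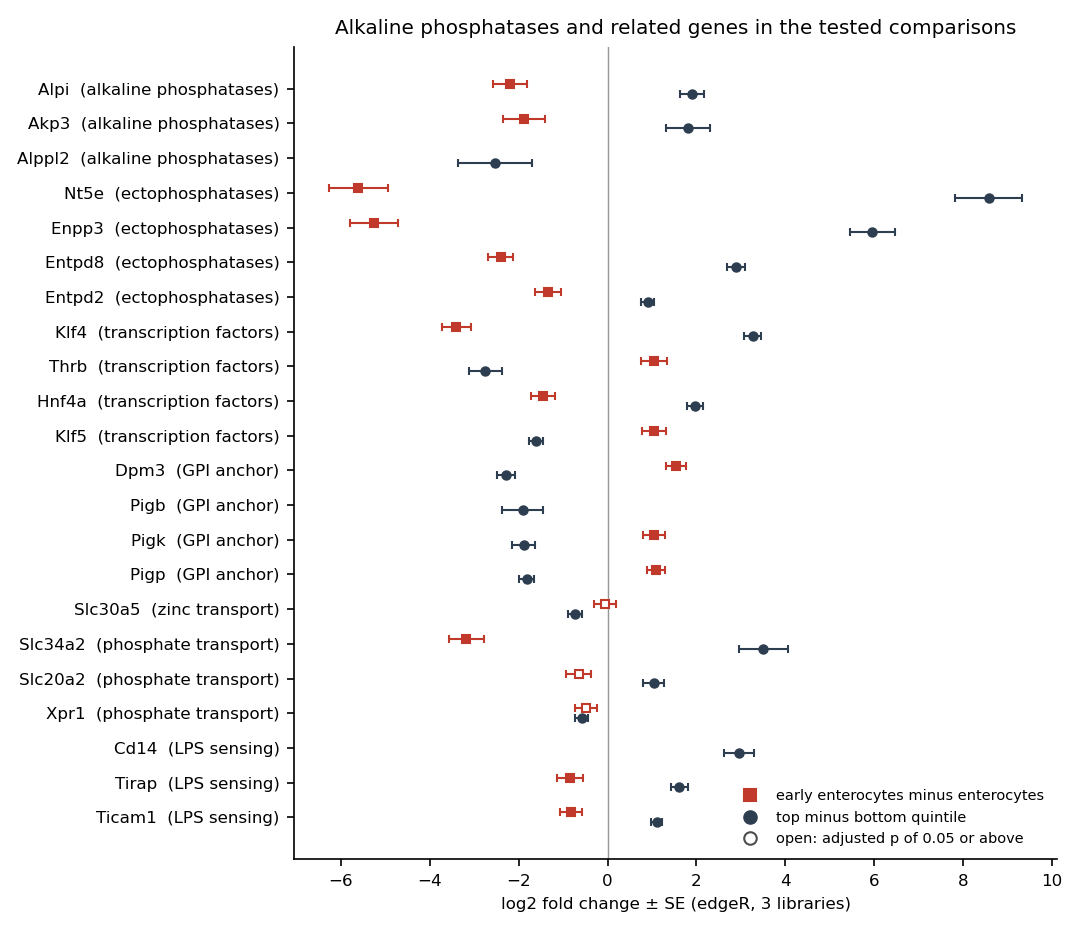
Log2 fold changes from edgeR with bars of 1 SE (3 libraries) for the tested members and the named related genes, as early enterocytes minus enterocytes (squares) and as the top minus the bottom quintile of the position score (circles); open symbols did not pass the adjusted threshold of 0.05. Alpi and the 4 ectophosphatases drawn lie below 0 in early enterocytes and above 0 toward the tip, and the 4 GPI anchor genes drawn and Alppl2 below 0 toward the tip.

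Genes with a course most like that of the members were sought by Pearson's r of log2(UMIs per 10000 + 0.1), as a description over sums that share libraries. Over 29 sums of library and class and 2705 genes, Alpi was most like Prap1 (r = 0.958), Gda (0.943), Exoc3l4 (0.925), Xdh (0.921) and Cyp3a13 (0.921). Gda, guanine deaminase, and Xdh, xanthine dehydrogenase, are enzymes of purine breakdown. Akp3 was most like S100g (0.898), Slc4a7 (0.830), Ncoa4 (0.825), Papss2 (0.812) and Reg1 (0.804), the last a villus bottom gene of the position score. Over the 15 sums of library and quintile and 2499 genes, Akp3 was most like Cybrd1 (0.998), Tmprss15 (0.994), Sult6b2 (0.977), Ncoa4 (0.959) and S100g (0.957). In the jejunal and ileal quintiles Akp3 was at most 0.0102 per 10000 UMIs, under the 0.1 added before the log. Its r over the quintiles mainly sets the duodenum against the other segments and says little of a course along the villus. The jejunal and ileal class sums of Akp3 were under 0.1 as well. Its r over the class sums, that with Alpi included, thus rests largely on the duodenal sums. Cybrd1, the ferric reductase of iron uptake, Tmprss15, enteropeptidase, and S100g, the calcium-binding protein of calcium uptake, are known from the duodenum. Over the quintile sums Alpi was most like Clcn3 (0.975), Gpd2 (0.964), Ghitm (0.942), Slmap (0.930) and Foxq1 (0.923). The r between Alpi and Akp3 was 0.735 over the class sums and 0.812 over the position sums.

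Levels also varied with the mitochondrial share of the cells. When the enterocytes of each library were split in 3 equal parts from low to high mitochondrial share, Alpi was 24.3, 24.2 and 21.9 per 10000 UMIs in the duodenum, 8.56, 8.81 and 7.87 in jejunum and 9.23, 7.18 and 5.80 in ileum. Akp3 in the duodenum was 1.40, 1.05 and 0.888. Per 10000 non-mitochondrial UMIs it was 1.73, 1.48 and 1.39. Duodenal enterocytes had the highest Alpi in each part. Between the other segments the order differed, since the ileum was above the jejunum in the part with the lowest mitochondrial share and below it in the other 2. Per 10000 non-mitochondrial UMIs the jejunum was above the ileum in each part, with 10.6, 12.4 and 12.3 against 9.97, 8.18 and 7.47.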

How the data were processed

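The deposited values are raw UMI counts per gene and barcode, which the authors made from 10x Genomics 3′ (v3) libraries with Cell Ranger 3.0.2; the gene annotation used is not given in the sources used here. As in the study, barcodes were kept within limits of 800 and 50000 UMIs, 200 and 6000 genes and a mitochondrial share of 40%. No doublet caller was run; barcodes above 50000 UMIs were left out. Cells were clustered in R 4.3.3 with Seurat 5.3.0 (2000 variable genes without the members, 30 components, libraries integrated, resolution 0.8) and named from marker lists. Clusters without a name from these lists were left out of the tests.

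Levels were computed on summed cells, per 10000 of their UMIs. Intervals are 95% exact Poisson or exact binomial (Clopper-Pearson) intervals (for ratios between segments or quintiles, a normal approximation on the log scale) and cover counting error only, as does the limit of 3 counts used at 0. Shares were compared after thinning to 800 UMIs. Sums per library and class of at least 10 cells, and per library and quintile, were tested with edgeR 4.0.16 (TMM, filterByExpr, quasi-likelihood, library as a block, Benjamini-Hochberg adjustment over all genes, threshold 0.05), and DESeq2 1.42.0 was an alternative. The fit was tested on simulated data with genes changed by 1 on the log2 scale. It found 51.2% of the 123 changed genes that passed the filter in the class comparison (7692 genes tested, 0 false calls). In the position comparison it found 46.1% of 191 (11047 genes tested, 7 false calls). Changed genes that failed the filter are not in these shares. Apart from the changed genes, all simulated sums had the same profile, so the class and library differences of the real data were absent. Tables and figures used Python 3.11.15 with numpy 2.4.6, pandas 2.3.3, scipy 1.17.1 and matplotlib 3.10.9.

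Members and lists were chosen with earlier results of these data known. The text names the 4 members, from each related list up to 4 called genes of the largest absolute log2 fold change in the position test, and the 5 genes most like Alpi and Akp3. The 3 libraries come from 1 pool of 3 mice, so p-values do not cover the spread between animals. All 27 class sums entered 1 fit, as did all 15 quintile sums, and the spread was estimated over all sums of a fit. A gene can therefore be called without the same direction in each library, as Akp3 was. Alternatives were the scaling, the gene filter, the tool, the block, each library left out, the mitochondrial limit, the clustering, the number of position parts and the thinning depth, and, added after the data were seen, levels per 10000 non-mitochondrial UMIs.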

Additional observations from a re-analysis of the deposited data

Results flagged for a closer look

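Barcodes above 40% mitochondrial UMIs, which no comparison used, also held the enzymes. Their Alpi level was 12.0 per 10000 UMIs in the duodenum, 4.43 in jejunum and 1.71 in ileum, and per 10000 non-mitochondrial UMIs 27.4, 10.1 and 4.37. Their Akp3 levels were 0.551, 0.00301 and 0.00610, and their Alppl2 levels 0.00346, 0.00226 and 0.0107 per 10000 UMIs in the same order. Akp3 was thus highest in the duodenum in these barcodes too.

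A cluster of 981 cells led by Gm26917 and Fgf15, left without a name, had Alpi levels of 18.1 per 10000 UMIs in the duodenum, 2.78 in jejunum and 2.33 in ileum. Akp3 was 1.11 in its duodenal cells and Alppl2 0.0228 in its ileal cells. Its duodenal Akp3 level was close to the 1.13 of enterocytes.

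The ratios of Akp3 lay on opposite sides of 1 in the duodenum and the jejunum, although no direction can be read from the jejunal counts. Early enterocytes had 0.196 times the level of enterocytes in the duodenum and 2.38 times in the jejunum, and the highest quintile of the position score had 3.34 times the level of the lowest in the duodenum and 0.758 times in the jejunum. The difference between segments was not tested, with 1 library each, and the jejunal ratios rest on 2 to 12 UMIs a group.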

How the results depend on the processing

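Of 205 tested alternatives 186 kept their direction and side of the threshold, 19 kept the direction only and 0 changed direction. These include Alpl in EECs and Alppl2 along the villus, which passed the gene filter through the group where they were high. Their values here are a description. Of 65 alternatives for levels and shares 39 moved by less than the counting interval and 26 by more. The cause of the changes below was not tested.

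Without the library block, log2 fold changes were -1.84 for Alpi and -2.56 for Akp3 in early enterocytes, and 1.51 for Alpi, 2.08 for Akp3 and -2.54 for Alppl2 along the villus, and none of these passed. The block pairs the sums of 1 library and is the paired analysis of these data. The segments themselves cannot be paired, with 1 library each. DESeq2 gave -1.60 and 0.58 for Akp3, and a split in 3 parts gave 1.21 for Akp3, with no call. Adjusted p over all alternatives ranged from 1.20e-08 to 0.152 for Alpi in early enterocytes and from 1.08e-11 to 0.129 along the villus, from 2.59e-05 to 0.269 and from 0.000664 to 0.697 for Akp3, and from 0.00228 to 0.0815 for Alppl2 along the villus. For Alpl in EECs the range was 6.43e-16 to 0.00320, given as a description because Alpl passed the filter through EECs.

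Leaving out 1 library in turn, log2 fold changes ranged from -2.51 to -1.79 for Alpi in early enterocytes, from 1.58 to 2.44 for Alpi along the villus, from -2.56 to -2.0 and from 1.86 to 1.96 for Akp3, from 8.63 to 10.25 for Alpl in EECs and from -3.70 to -1.67 for Alppl2 along the villus, which did not pass without the jejunum (-2.57). Akp3 was not tested without the duodenum.

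Alpi in enterocytes of the duodenum, jejunum and ileum was 23.9, 8.16 and 7.83 at no more than 20% mitochondrial UMIs and 32.5, 11.6 and 8.59 per 10000 non-mitochondrial UMIs, and as a mean over cells 23.8 in the duodenum and 8.76 in the jejunum. Duodenal Akp3 was 1.58, 1.56 and 1.31 under these alternatives. At 2000 UMIs a cell 17.6% of duodenal enterocytes held both genes.

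Along the villus 7857 genes were called, and 4823 without the block. Early enterocytes differed from enterocytes in 5174 genes, and in 3040 without the jejunum. Without TMM scaling the calls were 2218 higher and 5773 lower along the villus (with TMM 3739 and 4118) and 3472 higher and 1544 lower in early enterocytes (with TMM 2452 and 2722, the median over all genes moving from -0.11 to 0.22). Alppl2 had at most 49 UMIs in any quintile of a library.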
